A study of Mus musculus with 8 samples.

Results

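Macrophage transcripts were present in every library of embryonic mouse heart cells grown on stiff or soft silicone. They are described here through 10 genes: Lyz2, Csf1r, Cd68, C1qa, C1qb, C1qc, Adgre1, Mrc1, Ptprc and Tyrobp. The genes were taken by name, as the rows of the coding gene table whose Ensembl mouse identifier carries one of these symbols. All 10 were found among the 29844 rows of that table, and all 10 were among the 14059 genes that passed the filter on low counts. Both substrates carried cells from the same source, labelled as embryonic cardiomyocytes: E18.5 hearts of B6.Cg-Tg(HIST1H2BB/EGFP)1Pa/J mice, whose transgene makes a fluorescent histone, were dissected and digested to single cells. Culture lasted 4 days in medium with serum, on a silicone rubber (polydimethylsiloxane). There were 4 libraries from the stiff substrate (about 150 kPa) and 4 from the soft substrate (about 10 kPa), and the comparison asks how stiffness affects RNA levels. Nothing in the labels ties a library to its own culture or litter, and all libraries of a substrate share one name apart from a code, so the spread behind each p-value may be technical. The codes of stiff and soft libraries begin differently, and whatever the code marks cannot be told apart from the substrate.

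Macrophages settle in the heart before birth, from yolk sac and fetal liver precursors, and maintain themselves there with the help of CSF1, a growth factor read by the receptor CSF1R. They take up dying cells and debris, digest them in lysosomes, secrete the complement protein C1q and carry receptors that signal through small adaptors such as TYROBP. A digest of the whole heart holds such cells beside muscle, fibroblasts, endothelium and epicardium. The labels name no sort that would remove blood-derived cells.

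Coding totals were 27646471 to 34693673 counts per library. Levels are given as CPM, counts scaled by the library's total and its TMM factor, which are not corrected for gene length and are compared between libraries only, not between genes. At this depth a count of 0 in a library allows up to 3 counts, or 0.0876 to 0.107 CPM, and such limits cover counting error only. The label names cardiomyocytes, and 12 of 12 cardiomyocyte markers had counts in every library, with a summed level of 30083 ± 4660 CPM on stiff and 29661 ± 8983 CPM on soft (SD, n = 4 each). So did 10 of 10 markers each of fibroblasts, endothelium and mural cells (smooth muscle and pericytes) and 9 of 9 of epicardium. Estimates on stiff were higher for 4 and lower for 8 cardiomyocyte markers, 4 and 6 fibroblast, 7 and 3 endothelial, 0 and 10 mural and 4 and 5 epicardial markers, with none past the adjustment, and the part of these cells in the values below was not tested. In bulk RNA, fewer macrophages and less RNA per macrophage cannot be told apart.

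The lysozyme pair is shown because Lyz2, the member with the most counts, has a close neighbouring copy whose promoter can be set beside its own. Lyz2, the lysozyme of macrophages and other myeloid cells, lies on chromosome 10 from 117277541 to 117282272 on GRCm38.p6, and Lyz1, a close paralog known for its expression in Paneth cells of the gut, lies 5522 bases away, from 117287795 to 117292868. The 250 bases before each start site are given from the RefSeq promoter table for GRCm38.p6, 5′ to 3′ on the minus strand, Lyz2 at chr10:117282273-117282522 and Lyz1 at chr10:117292869-117293118. Capitals mark bases that differ between the pair in a global alignment, in which 200 bases were identical, 48 were mismatched and 4 stood against a gap.
Lyz2: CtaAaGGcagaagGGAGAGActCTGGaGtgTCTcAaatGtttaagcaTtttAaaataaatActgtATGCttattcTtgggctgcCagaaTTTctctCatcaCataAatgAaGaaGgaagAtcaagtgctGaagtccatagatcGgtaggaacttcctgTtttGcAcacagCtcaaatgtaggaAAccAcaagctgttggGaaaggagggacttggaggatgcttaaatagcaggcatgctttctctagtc
Lyz1: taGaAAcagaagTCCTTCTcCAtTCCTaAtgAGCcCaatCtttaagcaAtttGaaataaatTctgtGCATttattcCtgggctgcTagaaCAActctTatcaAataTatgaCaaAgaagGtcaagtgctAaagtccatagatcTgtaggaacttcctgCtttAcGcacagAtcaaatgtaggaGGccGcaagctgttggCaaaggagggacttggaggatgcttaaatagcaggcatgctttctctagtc

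C1qb and C1qc are shown as the neighbouring genes of the C1q cluster that have entries in the same table. C1q is built from A, B and C chains, and the genes of the chains lie side by side on chromosome 4: C1qb from 136880126 to 136886200, C1qc from 136889801 to 136892936 and C1qa from 136895916 to 136898844. The windows are the 250 bases before the start, both on the minus strand of GRCm38.p6 (the table's start for C1qc lies just inside the outer end of the gene), C1qb at chr4:136886201-136886450 and C1qc at chr4:136892915-136893164. Capitals mark GAGGAA on either strand, the core of the sequence bound by the myeloid factor PU.1.
C1qb: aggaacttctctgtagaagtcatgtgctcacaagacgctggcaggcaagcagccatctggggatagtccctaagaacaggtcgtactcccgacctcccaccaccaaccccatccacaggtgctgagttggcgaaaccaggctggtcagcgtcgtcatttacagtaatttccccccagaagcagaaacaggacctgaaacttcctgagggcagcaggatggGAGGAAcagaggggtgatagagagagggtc
C1qc: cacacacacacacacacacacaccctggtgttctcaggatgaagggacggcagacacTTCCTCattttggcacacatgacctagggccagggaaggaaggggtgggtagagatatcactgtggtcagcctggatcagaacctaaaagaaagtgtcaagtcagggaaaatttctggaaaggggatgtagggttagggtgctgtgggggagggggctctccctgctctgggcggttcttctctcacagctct

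Of the 10 members, promoters of 6 were examined, with 7 start sites among them. Csf1r, on chromosome 18, was left out of the look-up. Over the full windows of 250 bases before to 50 after the start, GAGGAA was found on either strand in 5 of the 7, against 28.3% of the 32851 promoters in the table. It was present for Cd68, C1qb, C1qc, Mrc1 and the upstream start of Ptprc, and these letters were not in the windows of Lyz2, Lyz1 and the other Ptprc start. TATAAA, the TATA box, was found in 1 of the 7, the upstream start of Ptprc, against 13.6% of all promoters. The 2 motifs do not overlap, and a match is a description of the letters and not of a bound site.

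No difference between stiff and soft was called for any of the 10 genes. In the fit over all 14059 coding genes by edgeR's quasi-likelihood test, 0 members passed at an adjusted p under 0.05, in a table in which 0% of genes passed. At an unadjusted p under 0.05 there were 0 members, against 0.925% of all genes (130, of which 0.441% of all genes higher on stiff and 0.484% lower), and unadjusted p ran from 0.469 for Adgre1 to 0.9997 for Lyz2. DESeq2 and limma-voom also called 0 genes. At an unadjusted p under 0.05 there were 322 of 16957 tested genes with DESeq2 and 181 of 14059 with limma-voom, with 0 members among them. Limma-voom with the replicate number as a block called 8 genes, 0 of them members. The same block in edgeR called 0 genes, with 360 at an unadjusted p under 0.05 and 0 members among them. Without the block, the share of 0.925% lay below the share that a threshold of 0.05 gives where no gene differs. The 360 of 14059 genes with the block in edgeR and the 432 of 14059 with it in limma-voom also lay below that share. The reason was not tested. Stiff and soft libraries overlapped for all 10 members, where 1.29% of all genes did not overlap. Estimates were higher on stiff for 4 members and lower for 6, with a median log2 fold change of -0.09, beside 51.9% lower and a median of -0.01 over all genes.

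**Figure D1:**
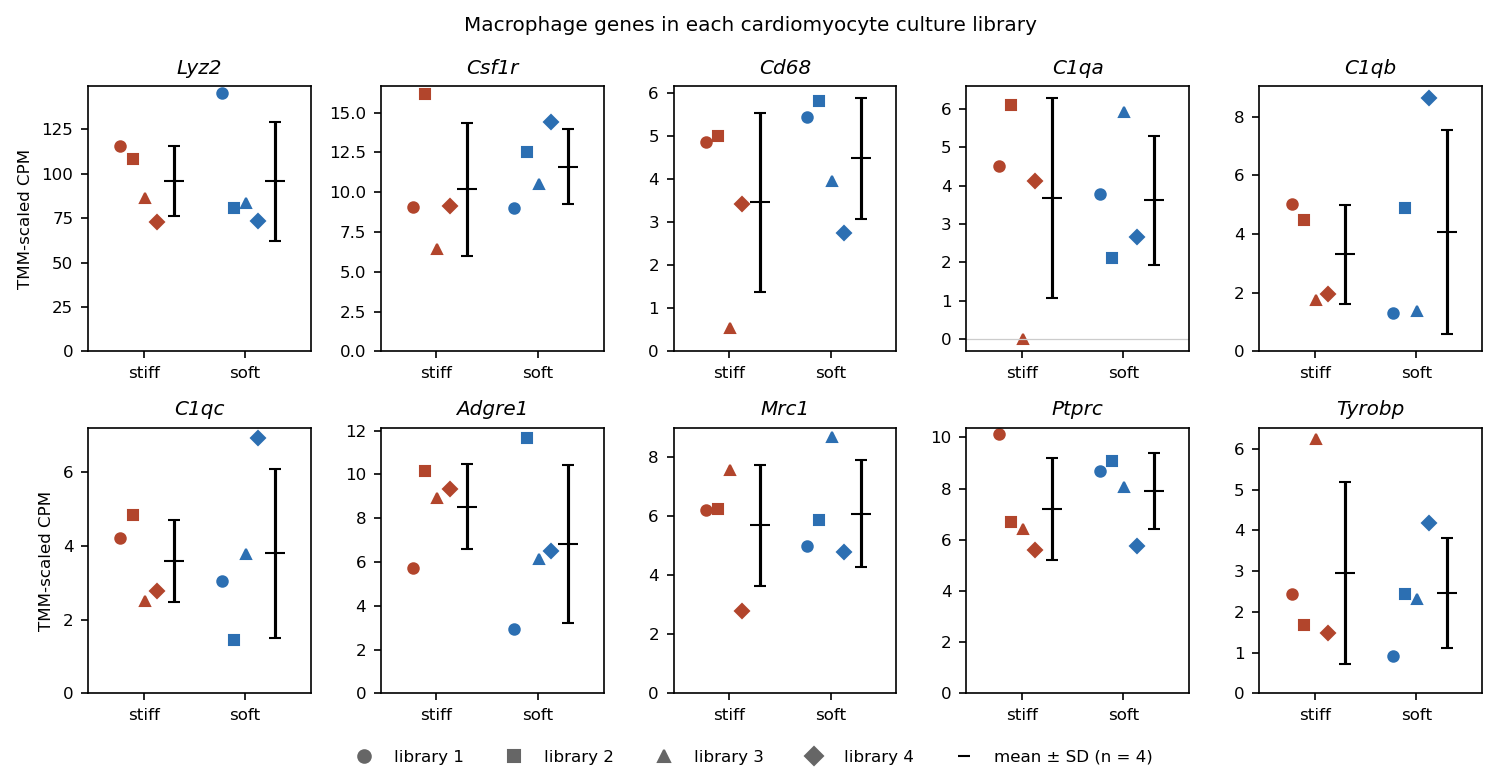
TMM-scaled CPM of the 10 macrophage genes (vertical axis, one panel per gene with its own scale) in each of 4 stiff (left, red) and 4 soft (right, blue) libraries, with the mean and SD in black. The substrates overlap in every panel, C1qa is at 0 in stiff 3, and Lyz2 is highest in soft 1 at 145 CPM.

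Lyz2 was the best measured member, with 2222 to 4415 counts per library. It stood at 115, 108, 86.5 and 72.8 CPM in stiff libraries 1 to 4, against 145, 80.8, 83.7 and 73.3 CPM in soft libraries 1 to 4. The means were 95.8 ± 19.7 CPM on stiff and 95.8 ± 33.3 CPM on soft (SD, n = 4 each). Soft 1 stood above all other libraries, and the lowest library of each substrate was its number 4. The log2 fold change was 0.00 (SE 0.23), with an unadjusted 95% interval from 0.718-fold to 1.39-fold and an edgeR adjusted p of 0.99997. Without soft 1 the log2 fold change was 0.27, and without stiff 1 it was -0.10. Lyz1 had 0 counts in 5 of 8 libraries, 2 in soft 3, 5 in soft 4 and 113 in stiff 3. Stiff 3 held nearly all Lyz1 counts, and its Lyz2 level lay within the range of the other libraries. How reads that match both genes were assigned is not given in the sources used here.

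Cd68 encodes a glycoprotein of the lysosome and endosome membrane that is used to stain macrophages in tissue (chromosome 11, 69664213 to 69666170). It stood at 4.86, 5.004, 0.540 and 3.42 CPM in stiff libraries 1 to 4, against 5.43, 5.80, 3.95 and 2.74 CPM in soft libraries 1 to 4. Stiff 3 lay apart from all others, with 18 counts and a 95% Poisson interval from 0.320 to 0.853 CPM, while the other 7 libraries held 83 to 165 counts. The log2 fold change was -0.38 (SE 0.66; edgeR adjusted p = 0.99997), and without stiff 3 it was -0.02.

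The receptor side of the list covers growth factor sensing, uptake and signalling. Csf1r encodes the receptor for CSF1 and IL34, on which most tissue macrophages depend (chromosome 18, 61105572 to 61131139). It stood at 9.10, 16.2, 6.42 and 9.11 CPM in stiff libraries 1 to 4, against 8.99, 12.5, 10.5 and 14.4 CPM in soft libraries 1 to 4. The highest and the lowest of the 8 libraries were both stiff, and the log2 fold change was -0.19 (SE 0.35; edgeR adjusted p = 0.99997). The span of Csf1r is overlapped over 8247 bases by that of the annotated noncoding gene Gm52352, which was not matched by name in the coding counts. Overlap of exons was not examined, and the strand handling of the counting is not given in the sources used here. Whether reads of Gm52352 entered the Csf1r counts was not tested.

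Adgre1 encodes F4/80, an adhesion receptor that defines mouse tissue macrophages (chromosome 17, 57358581 to 57483529). It stood at 5.75, 10.1, 8.91 and 9.32 CPM in stiff libraries 1 to 4, against 2.96, 11.7, 6.15 and 6.50 CPM in soft libraries 1 to 4. The lowest and the highest library were both soft. Its log2 fold change of 0.32 (SE 0.43; edgeR adjusted p = 0.99997) was the highest of the 10, and it was 0.07 without soft 1 and 0.72 without soft 2.

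Mrc1 encodes the mannose receptor CD206, an uptake receptor of resident macrophages that some endothelial cells also make (chromosome 2, 14229414 to 14332023). It stood at 6.20, 6.23, 7.56 and 2.77 CPM in stiff libraries 1 to 4, against 4.97, 5.87, 8.68 and 4.78 CPM in soft libraries 1 to 4. Library 3 was the highest of both substrates and library 4 the lowest. The log2 fold change was -0.09 (SE 0.45; edgeR adjusted p = 0.99997), and it turned to 0.13 without stiff 4 or without soft 3.

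Ptprc encodes CD45, the membrane phosphatase carried by white blood cells of all kinds (chromosome 1, 138062859 to 138175756). It stood at 10.1, 6.71, 6.42 and 5.61 CPM in stiff libraries 1 to 4, against 8.69, 9.08, 8.07 and 5.74 CPM in soft libraries 1 to 4. It varied least of the 10, with a coefficient of variation of 22.1% over the 8 libraries, and its log2 fold change was -0.13 (SE 0.38; edgeR adjusted p = 0.99997). The substrates overlapped, with stiff 1 the highest library and stiff 4 the lowest.

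Tyrobp encodes DAP12, a signalling adaptor of myeloid and natural killer cells (chromosome 7, 30413782 to 30417582). It stood at 2.43, 1.67, 6.24 and 1.49 CPM in stiff libraries 1 to 4, against 0.92, 2.43, 2.31 and 4.19 CPM in soft libraries 1 to 4. Stiff 3, the library with the least Cd68, held the most Tyrobp, with 208 counts. The log2 fold change was 0.26 (SE 0.78; edgeR adjusted p = 0.99997), and it turned to -0.40 without stiff 3.

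The C1q chains did not keep a fixed ratio between libraries. C1qa stood at 4.51, 6.09, 0 and 4.12 CPM in stiff libraries 1 to 4, against 3.79, 2.11, 5.90 and 2.67 CPM in soft libraries 1 to 4. C1qb stood at 5.04, 4.49, 1.77 and 1.96 CPM in stiff libraries 1 to 4, against 1.32, 4.89, 1.39 and 8.64 CPM in soft libraries 1 to 4. C1qc stood at 4.23, 4.83, 2.52 and 2.77 CPM in stiff libraries 1 to 4, against 3.06, 1.44, 3.77 and 6.93 CPM in soft libraries 1 to 4. C1qa had no count in stiff 3, which allows up to 0.09 CPM, although the same library held 59 counts of C1qb and 84 of C1qc. In the other 7 libraries C1qa made up from 14.7% of the C1q counts in soft 4 to 53.4% in soft 3. The sum of the chain genes was 10.6 ± 5.04 CPM on stiff and 11.5 ± 4.70 CPM on soft (SD, n = 4 each), from 4.29 CPM in stiff 3 to 18.3 CPM in soft 4.

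**Figure D2:**
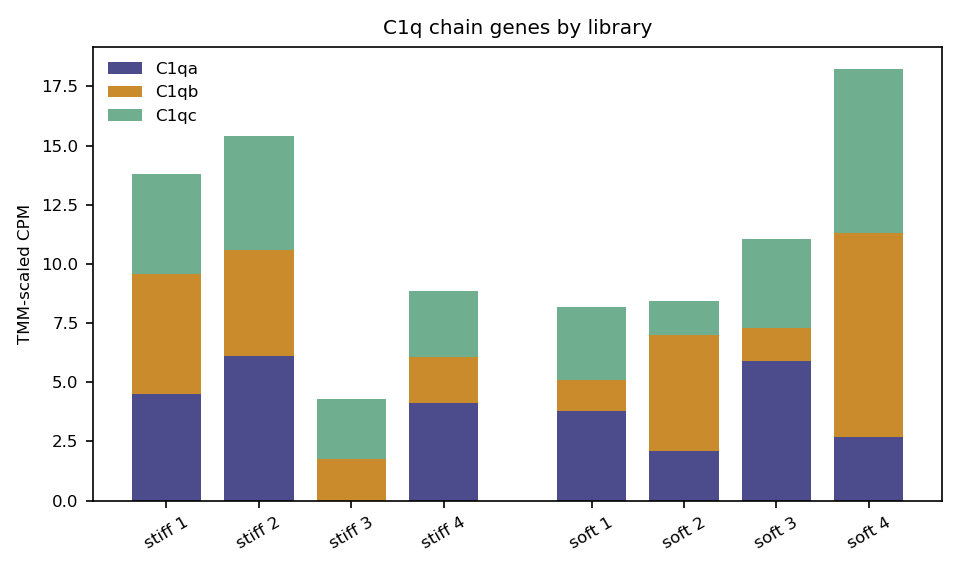
Stacked TMM-scaled CPM (vertical axis) of C1qa, C1qb and C1qc in 4 stiff (left) and 4 soft (right) libraries. The sums run from 4.29 CPM in stiff 3, which has no C1qa segment, to 18.3 CPM in soft 4, and the share of each chain changes from library to library.

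The log2 fold changes of the chains were 0.02 (SE 0.97) for C1qa, -0.29 (SE 0.71) for C1qb and -0.08 (SE 0.62) for C1qc, each with an edgeR adjusted p of 0.99997. Leaving out stiff 3 gave 0.44 for C1qa, and leaving out soft 4 gave 0.39 for both C1qb and C1qc. The direction of C1qb and C1qc thus turned without soft 4, and that of C1qa turned to -0.33 without stiff 2. With limma-voom C1qa stood at -1.67, and with the replicate block in edgeR the values were -0.22 for C1qa, 0.0199 for C1qb and 0.0565 for C1qc. In all, C1qa turned its sign in 7 of 18 alternatives, C1qc in 5 and C1qb in 2.

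The intervals differed widely in width between members. The unadjusted 95% interval reached 1.39-fold to either side for Lyz2, 1.67-fold for Csf1r, 1.74-fold for Ptprc, 1.89-fold for Adgre1 and 1.95-fold for Mrc1. It reached 2.47-fold for C1qc, 2.61-fold for Cd68, 2.83-fold for C1qb, 3.13-fold for Tyrobp and 4.21-fold for C1qa. The median over the 2459 tested genes at 2.71 to 10.9 CPM, the range of the 9 members other than Lyz2, was 2.06-fold. As these intervals are unadjusted, a call after adjustment over all tested genes needed a larger difference than these reaches. The missing calls do not show that the substrates were equal.

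**Figure D3:**
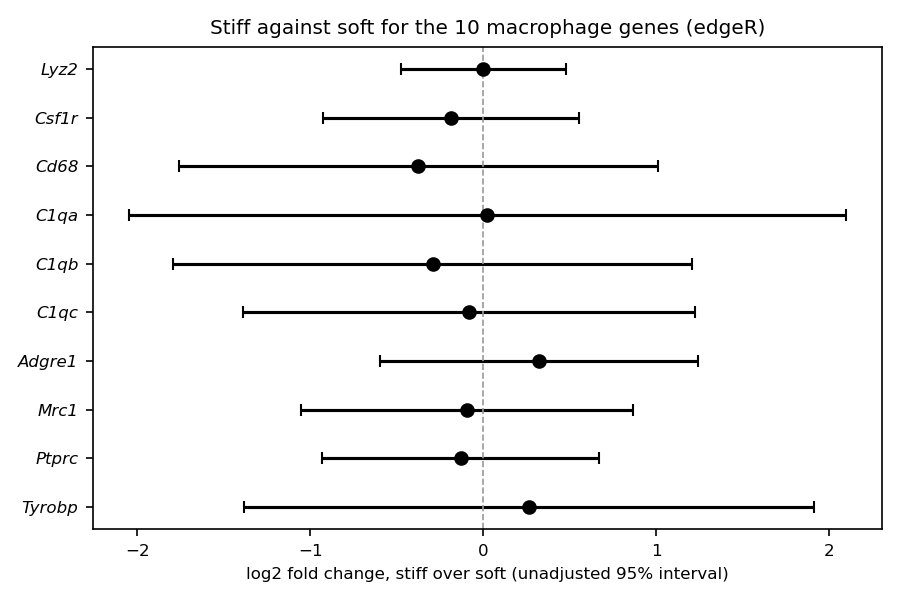
Log2 fold change of stiff over soft (horizontal axis) for each macrophage gene, with unadjusted 95% intervals derived from edgeR's F statistic. Every interval crosses 0; Lyz2 has the narrowest, 1.39-fold to either side, and C1qa the widest, 4.21-fold.

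The spread between libraries was far above counting error for every member. The variance over the 8 libraries was 11.3 times that of counting for Ptprc, 17.5 times for Mrc1 and 205 times for Lyz2, with 23.1 to 55.1 times for the other 7. The coefficient of variation ran from 22.1% for Ptprc to 69.6% for C1qb. It was 43.6% at the median over all tested genes in the range of 2.71 to 10.9 CPM, with quartiles of 33.8% and 55.4%. Of these 2459 genes, 2.97% had no count in at least 1 library, as C1qa did.

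The summed level of the 10 members was 168, 170, 127 and 113 CPM in stiff libraries 1 to 4, against 185, 137, 134 and 130 CPM in soft libraries 1 to 4. The means were 144 ± 28.6 CPM on stiff and 147 ± 26.1 CPM on soft (SD, n = 4 each), a log2 ratio of -0.02. Lyz2 supplied 56.4% to 78.4% of this sum. Without it the sum was 48.6 ± 10.1 CPM on stiff and 50.8 ± 7.59 CPM on soft, a log2 ratio of -0.06, and soft 1, the highest library with Lyz2, became the lowest at 40.1 CPM. The sums differed between substrates by less than the spread between libraries.

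Pairs of members had mixed correlations over the libraries. Of 45 pairs of members, 25 had a positive and 20 a negative Pearson r of log2 CPM over the 8 libraries, with a median of 0.08. The 3 pairs of C1q chains had an r of 0.19 for C1qa with C1qb, 0.34 for C1qa with C1qc and 0.37 for C1qb with C1qc. The highest r was 0.92 for Cd68 with C1qa. It was 0.03 without stiff 3, in which both were lowest. Csf1r with C1qb had an r of 0.66, between 0.55 and 0.76 whichever library was left out. Lyz2 had an r of 0.59 with Ptprc, between 0.49 and 0.75 whichever library was left out. With Adgre1 its r was -0.66, and -0.17 without soft 1. The lowest r was -0.77 for Cd68 with Tyrobp, between -0.81 and -0.52 whichever library was left out. C1qa with Tyrobp had an r of -0.72, between -0.82 and -0.35 in the same way. Of the 45 pairs, 21 kept their sign whichever library was left out. Among 10 fibroblast genes the median r was 0.62, at a median level of 222 CPM against 4.93 CPM for the members, and among 10 endothelial genes it was 0.30 at 18.5 CPM. All these values share the same 8 libraries and their depths, and are given as a description.

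**Figure D4:**
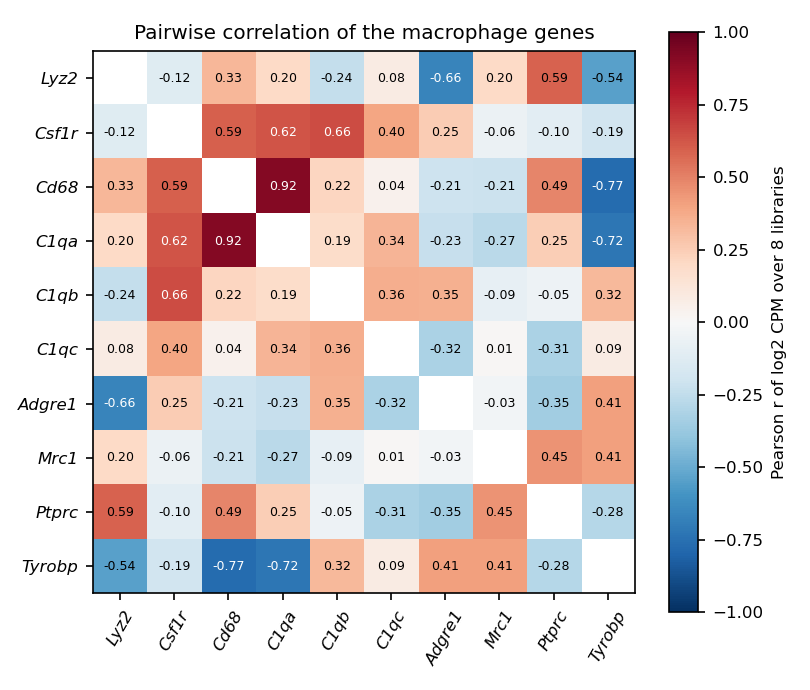
Pearson r of log2 CPM over 8 libraries for each pair of macrophage genes (rows and columns), coloured from -1 (blue) to 1 (red) with r printed in each cell. Positive and negative pairs are mixed, with a median r of 0.08 over 45 pairs; the highest, Cd68 with C1qa at 0.92, is 0.03 without stiff 3.

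Genes with a pattern like that of the members were sought by the r between their log2 CPM and the mean deviation of the 10 members over the 8 libraries. The 10 nearest of 13220 genes were Pgbd5, Hebp1, Stag3, Alox5ap, Dhx34, Xlr3a, Unc13a, Chst1, Gpr137b and Rpl28, with r from 0.94 to 0.97. Alox5ap, number 4 by r, encodes the activating protein of 5-lipoxygenase, known from myeloid cells. It had no count in stiff 3, like C1qa, and so did Xlr3a, number 6 by r. The score was lowest in stiff 3, so genes low in that library were favoured, and the shared lack of counts shows no myeloid link. The lowest r of the 13220 was -0.98, and the 10 genes nearest by Spearman's rho shared 1 gene with these 10. Stiff 3 had the lowest member score, -0.77 on the log2 scale, and stiff 2 the highest, 0.39. The 30 other macrophage genes at 1 CPM or more had a median r of 0.17 with the score, against 0.01 over all 13220 genes and 0.36 for 10 endothelial genes. The median r was 0.36 for 21 lysosome and lipid handling genes, 0.35 for 12 complement genes and -0.44 for 7 chemokine and cytokine genes, of which 1 was positive.

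The ligand of CSF1R was present in each library. Csf1, which encodes the ligand and is known to be made by fibroblasts and other stromal cells, stood at 302 ± 55.3 CPM on stiff and 315 ± 45.3 CPM on soft (SD, n = 4 each). Its log2 fold change was -0.06 (SE 0.18; edgeR adjusted p = 0.99997), and the libraries overlapped. Il34, the second ligand, stood at 1.68 ± 1.92 CPM on stiff and 1.31 ± 1.10 CPM on soft. Csf2 and Csf3, growth factors of granulocytes and inflammatory macrophages, had counts in 3 and 2 of the 8 libraries and were not tested.

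Another 42 macrophage genes were examined, of which 35 were tested, with 19 higher and 16 lower estimates on stiff and a median log2 fold change of 0.02. None passed the adjustment. The list included Lcp1, an actin-bundling protein of leukocytes, at 73.4 ± 17.6 CPM on stiff and 70.3 ± 19.2 CPM on soft, and the clearance receptor gene Mertk at 63.3 ± 16.3 CPM on stiff and 62.6 ± 19.4 CPM on soft. Mertk is also expressed outside the myeloid lineage. Ms4a7, a membrane protein gene of macrophages, stood at 7.83, 12.2, 1.92 and 1.43 CPM in stiff libraries 1 to 4, against 2.93, 0.46, 0.25 and 2.01 CPM in soft libraries 1 to 4. Its higher mean came from stiff 1 and stiff 2, the substrates overlapped, and the log2 fold change was 2.04 (SE 0.87) with an unadjusted p of 0.0318 and an edgeR adjusted p of 0.99997. Fcgr3, an IgG receptor gene, stood at 7.40 ± 1.86 CPM on stiff and 4.19 ± 1.58 CPM on soft, with an unadjusted p of 0.0972 (edgeR).

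Genes that part resident from monocyte-derived macrophages ranged from no count to well counted. Among resident genes, Gas6, a ligand of MERTK, stood at 85.6 ± 29.7 CPM on stiff and 89.0 ± 24.2 CPM on soft (SD, n = 4 each). The transcription factor gene Maf stood at 75.7 ± 19.7 CPM on stiff and 73.2 ± 27.7 CPM on soft, and the growth factor gene Igf1 at 58.9 ± 40.1 CPM on stiff and 46.5 ± 17.7 CPM on soft. These genes are also expressed by cells other than macrophages. Timd4, a receptor of long-lived resident macrophages, had 0 counts in all 8 libraries. Folr2, the folate receptor of resident macrophages, stood at 1.37 ± 0.56 CPM on stiff and 0.42 ± 0.75 CPM on soft, and Lyve1, which lymphatic endothelium shares, at 0.73 ± 0.90 CPM on stiff and 2.06 ± 2.74 CPM on soft. Of 12 genes of monocytes and antigen presentation, 5 had no count in any library, among them Ly6c2, Chil3, H2-Aa and Ciita, and 3 were tested. Among all 29844 coding rows, 12493 had no count in any library. S100a4, a calcium-binding protein gene that fibroblasts share, stood at 182 ± 82.7 CPM on stiff and 189 ± 114 CPM on soft, and Plac8 at 10.0 ± 4.25 CPM on stiff and 12.7 ± 3.91 CPM on soft. H2-Ab1, a class II chain gene, had 13.6 ± 5.93 CPM on stiff and 14.6 ± 4.54 CPM on soft although its partner H2-Aa was listed at 0. Of 11 resident genes 9 were tested, with 5 higher and 4 lower on stiff, and all 3 tested monocyte genes were lower, with 0 past the adjustment in either list.

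Complement partners and the signalling partners of TYROBP were measured beside the members. Of 15 complement genes 13 were tested, with 8 higher and 5 lower on stiff and a median of 0.05. C3ar1, the receptor gene for the C3a fragment, stood at 10.8, 8.44, 19.4 and 7.89 CPM in stiff libraries 1 to 4, against 9.78, 6.89, 4.27 and 3.89 CPM in soft libraries 1 to 4. Its log2 fold change was 0.90 (SE 0.42), with an unadjusted p of 0.0470 and an edgeR adjusted p of 0.99997. C5ar1, the receptor gene for C5a, stood at 1.66, 1.97, 4.35 and 1.90 CPM in stiff libraries 1 to 4, against 0.89, 0, 0.07 and 1.15 CPM in soft libraries 1 to 4, and its substrates did not overlap (unadjusted p = 0.103, edgeR adjusted p = 0.99997). The C1 inhibitor gene Serping1 stood at 107 ± 57.9 CPM on stiff and 89.2 ± 36.0 CPM on soft. Among 15 TYROBP receptors and effectors 9 were tested, with 4 higher and 5 lower; the receptor gene Trem2 stood at 2.05 ± 0.90 CPM on stiff and 1.04 ± 0.66 CPM on soft, and the kinase gene Syk at 27.9 ± 6.46 CPM on stiff and 26.4 ± 4.30 CPM on soft.

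Chemokines and cytokines of macrophages held 0 called genes. Of 20 genes 9 were tested, with 5 higher and 4 lower on stiff, and 3 (Ccl8, Ccl12 and Il10) had no count in any library, beside 12493 of all 29844 coding rows. Ccl2, a monocyte attractant that fibroblasts also make, stood at 9.75 ± 8.24 CPM on stiff and 10.8 ± 2.85 CPM on soft. Of 22 lysosome and lipid handling genes 21 were tested, with 9 higher and 12 lower and a median of -0.05; these are used by most cells, and the cathepsin genes Ctsd and Ctsb stood at 755 ± 138 and 507 ± 90.4 CPM on stiff, against 798 ± 120 and 506 ± 15.7 CPM on soft. Over the 8 lists beside the members, 100 distinct genes were tested, of which 50 were higher and 50 lower on stiff. Of these, 0 passed the adjustment, 2 (2%, Ms4a7 and C3ar1) had an unadjusted p under 0.05 against 0.925% of all genes, and 1 (1%, C5ar1) did not overlap against 1.29%.

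Most markers of other blood cells had no count, and neither had 12493 of all 29844 coding rows. A count of 0 for such a marker does not show that its cell type was absent. Of 14 genes of T, B and NK cells, 10 had no count in any library, among them Cd3e, Cd4 and Cd8a, and the summed level of the list was at most 3.59 CPM in any library. Of 18 genes of neutrophils, mast cells and platelets, 11 had none, among them S100a9, Mpo, Elane and Cpa3. The counts of that list lay mainly in Kit and Itga2b, which have other sources, with 8.93 ± 6.71 and 5.26 ± 0.73 CPM on stiff, against 8.69 ± 2.39 and 5.34 ± 3.27 CPM on soft. Of 10 erythroid genes 8 had no count in any library, and 1, the erythropoietin receptor gene Epor, was tested, at 1.71 ± 2.09 CPM on stiff and 1.97 ± 0.88 CPM on soft. The haemoglobin genes among them are near-identical copies, and how reads shared between copies were counted is not given in the sources used here. Lck and Il7r, tested genes of the lymphocyte list that other cells can also make, averaged 1.27 ± 1.31 and 0.90 ± 1.35 CPM on stiff, against 0.70 ± 0.95 and 0.59 ± 0.61 CPM on soft.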

How the data were processed

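RNA was sequenced from 8 libraries, 4 per substrate. The authors deposited raw read counts per gene for coding genes and for 46475 noncoding identifiers, the latter used only in one alternative. The build GRCm38 and the tools TopHat2 2.0.14, TopHat, Bowtie2, HTSeq 0.6.1, Cufflinks, edgeR, DESeq2 and FastQC 0.11.2 are listed in the submitters' processing notes, without the role of each. Symbols were matched for 29150 of 29844 coding rows. Positions and promoters are RefSeq's for GRCm38.p6.

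The tools were edgeR 4.0.16, DESeq2 1.42.0 and limma 3.58.1, run under R 4.3.3. The deposited counts were filtered by filterByExpr (minimum count 10, minimum total 15) and scaled by TMM. Stiff was set over soft with edgeR's quasi-likelihood F test, robust, in a model that held the substrate alone. Benjamini-Hochberg adjustment ran over all tested genes, with a threshold of 0.05. Log2 CPM for correlations used a prior count of 2. Poisson and fit intervals are at 95%. The SE of a log2 fold change was taken as its absolute size over the square root of the F statistic. The fit interval extends to either side by that SE times a t quantile, in the fit without the block. The pipeline was run on simulated counts with planted fold changes, as a check of the code. That run does not measure the power for the genes described here.

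The members, the 16 other lists and the tests were chosen with earlier results of these data known. The rule for named genes took all members, Lyz1, annotated neighbours, up to 4 genes of each list by level and up to 3 by p, and the 10 genes most like the member score; other genes, such as Timd4, are named as those with 0 or few counts. Replicate numbers follow the order of the samples and the last digit of the library codes; the labels state no shared culture or litter. Deviations from the substrate mean correlated between same-numbered libraries at 0.104, 0.181, 0.128 and 0.305 over all tested genes, where stiff 1 correlated more with soft 2, at 0.130. Over genes with a mean of at least 32 CPM they were 0.305, 0.515, 0.382 and 0.438, and each stiff library correlated best with the soft library of its number, while soft 1 correlated more with stiff 2, at 0.356. As every same-numbered pair lay above 0.1, the numbers were treated as possible pairs. The blocked fit was an alternative to the main fit without a block. Stiff 1 with soft 2, and stiff 2 with soft 1 at 0.112, also lay above 0.1 over all tested genes. No pair of libraries agreed within sampling noise in a chi-square comparison. The smallest chi-square per degree of freedom was with the soft library of the same number for stiff 1 (46.3), stiff 2 (44.8) and stiff 3 (54.55). For stiff 4 it was with soft 3, at 105, against 113 with soft 4. The alternatives were other scalings and filters, DESeq2, limma-voom, the replicate block, each library left out and the tables joined.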

Additional observations from a re-analysis of the deposited data

Results flagged for a closer look

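A library was marked where it lay far from the other 3 of its substrate, by Dixon's ratio at 95%. Of 252 groups of 4 that were checked, 24 were marked, and chance marks about 1 in 20. Several are genes with counts in one library of the substrate.

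In soft 1, Lyz2 stood at 145 CPM, while the remaining soft libraries held 73.3 to 83.7 CPM. The summed level of the macrophage genes stood at 185 CPM there against 130 to 137, the resident macrophage genes at 282 CPM against 195 to 205, and Gas6 at 125 CPM against 74.6 to 80.0. Lyz2 supplied 78.4% of the macrophage sum in soft 1, and without Lyz2 that library was the lowest, at 40.1 CPM. Most of the resident sum there came from Gas6, Maf (114 CPM) and Igf1 (27.7 CPM), which other cells also express. Maf stood at 55.3 to 68.0 CPM in the other soft libraries. Igf1 was lower in soft 1 than in the other soft libraries, which held 36.0 to 65.5 CPM.

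In stiff 3, Mertk stood at 39.0 CPM against 69.9 to 73.3 CPM in the other stiff libraries. C5ar1 stood at 4.35 CPM against 1.66 to 1.97, H2-Eb1 at 3.96 CPM against 0 to 0.37, and Msln at 184 CPM against 123 to 128. Lyz1 stood at 3.39 CPM and the platelet chemokine gene Ppbp at 1.11 CPM in stiff 3, both at 0 in the other stiff libraries.

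In soft 3, Ppbp stood at 4.41 CPM, H2-Eb1 at 1.60 CPM, Cd79a at 0.605 CPM and Csf2 at 0.391 CPM, each at 0 in the other soft libraries. In soft 2, Folr2 stood at 1.55 CPM against 0 to 0.142.

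In library 4 of both substrates, Csf3 (0.701 CPM in stiff 4 and 0.165 CPM in soft 4) and Klf1 (0.497 CPM in stiff 4 and 1.02 CPM in soft 4) had counts while the other libraries of the substrate had none. Cd79b stood at 0.102 CPM in stiff 2 alone of the stiff libraries.

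Among genes of muscle cells, soft 4 held 10552 CPM of Actc1 against 3905 to 4796 in the other soft libraries, 7425 CPM of Myh6 against 2634 to 3432 and 1182 CPM of Des against 452 to 571. The summed cardiomyocyte markers stood at 43092 CPM there against 24673 to 26195. The part that these libraries play in the macrophage values is given by leaving each out.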

How the results depend on the processing

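No alternative called a macrophage gene: 0 were called in all 18 settings, with edgeR, DESeq2 or limma adjusted p from 0.99962 to 1. Among all genes, 0 were called in 17 of 18 settings; limma-voom with the replicate block, an alternative added after the data were seen, called 8, none a member. The replicate block in edgeR called 0, with 360 genes at an unadjusted p under 0.05 against 130 without it, and changed no call. Of 180 alternative log2 fold changes of members, 155 kept their sign and 25 turned it. With the replicate block they turned to -0.22 for C1qa, 0.0199 for C1qb and 0.0565 for C1qc, with limma-voom to -1.67 for C1qa and 0.0245 for C1qc, and for Lyz2, at 0.0001, to -0.0002 with upper quartile scaling and -0.0013 with the tables joined. Leaving out 1 library at a time gave ranges from -0.10 to 0.27 for Lyz2, -0.33 to 0.44 for C1qa, -0.59 to 0.39 for C1qb, -0.35 to 0.39 for C1qc, -0.26 to 0.13 for Mrc1 and -0.40 to 0.65 for Tyrobp. They kept their sign for Csf1r (-0.50 to -0.02), Cd68 (-0.61 to -0.02), Adgre1 (0.07 to 0.72) and Ptprc (-0.34 to -0.03). The summed level moved from a log2 ratio of -0.02 to between -0.11 without stiff 2 and 0.11 without soft 1, less than the spread within a substrate of 0.27. The 10 genes most like the member score by Pearson's r shared 1 with those by Spearman's rho. Cd68, Tyrobp and the C1q chains had mean counts of 83.3 to 118 per library and a counting error of 9.21% to 11.0%, below the spread between their libraries. The cause of these turns was not tested.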
